A study of Mus musculus with 12 samples.

Results

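The genes described here are the 38 that carry glucose into the cell, break it down to lactate or pyruvate, or build it anew: glucose transporters, hexokinases, phosphofructokinases and their regulators, the enzymes from aldolase to lactate dehydrogenase, lactate transporters, a pyruvate dehydrogenase kinase and the enzymes of gluconeogenesis. They were taken by gene symbol. A gene was measured where a probe set of the array named it alone, and its probe set with the highest mean over the 6 arrays of a tissue stood for it there. This left 34 of the 38 genes, out of 17097 genes in all. Gpi1, Pfkfb1, Pgam1 and Eno1 were not analysed here.

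Expression was measured on 12 arrays in C57BL/6 mice. The liver was taken from adult females of 1.5 months, 3 Abcb11-/- and 3 WT. Abcb11 is the pump that moves bile acids from the hepatocyte into bile, and mice without it develop cholestasis. The lung came from offspring that were all Abcb11+/-, from an Abcb11-/- mother crossed with a WT father or from a WT mother crossed with an Abcb11-/- father, so that the mother's genotype differed and that of the pup did not. The lung arrays cover both mothers at embryonic days E17.5 and E18.5 and at N0, the day of birth. The labels do not say how many pups each lung array stands for. A legend of the study gives a number of animals for gene expression at E18.5 and N0, but not whether they were pooled on an array. There was 1 array per mother and stage, and no lung difference at a given stage has a replicate. All values are log2 signals. They were not compared across the tissues, and the level of a gene was not set against that of another gene, because probe sets differ in brightness.

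Glycolysis turns glucose into pyruvate with a small yield of ATP and needs no oxygen, and lactate dehydrogenase then lets it run on by turning pyruvate into lactate. Most steps have several isozymes with tissue preferences, and many of their genes are targets of the hypoxia-inducible factors (HIF). The liver runs the opposite path, gluconeogenesis, which bypasses the irreversible steps of glycolysis with pyruvate carboxylase, phosphoenolpyruvate carboxykinase, fructose-1,6-bisphosphatase and glucose-6-phosphatase and supplies the blood with glucose.

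The arrays matched their labels in the liver, where Abcb11 had log2 values of 2.90, 3.14 and 3.26 in Abcb11-/- mice, against 11.22, 11.04 and 10.88 in WT mice, and the median of the 11 measured hepatocyte genes differed by 0.003. In the lung, 1 array stood apart, that of the Abcb11-/- mother at E17.5. It exceeded its WT counterpart by 1.5-fold or more for all 11 hepatocyte genes (median difference 5.004 on the log2 scale) and for 12 of 14 skeletal muscle genes (4.14). The hepatocyte gene Alb was at 13.01 with the Abcb11-/- mother and at 9.05 with the WT mother. The muscle actin Acta1 was at 10.60 with the Abcb11-/- mother and 4.73 with the WT mother. It was 1.5-fold or more below for 8 of 13 genes of heart muscle. At N0 the Abcb11-/- mother's array was above by that fold for 8 of these 13 and below for 6 of 9 neutrophil genes. At E18.5, 4 skeletal muscle genes were lower, and no hepatocyte gene was 1.5-fold apart. In bulk tissue, fewer cells of a type and less RNA per cell cannot be told apart.

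At N0, genes at several steps from glucose entry to lactate formation were 1.5-fold or more higher with the Abcb11-/- mother. Not every isozyme was, and the mutase and enolase steps were seen only through the muscle forms Pgam2 and Eno3 and the dim Eno2. Aldoa, Gapdh and Pgk1 lay under that fold, and Slc2a3 and the Pfkfb genes were lower. No measured gene of gluconeogenesis was 1.5-fold apart. Pck1, Fbp1, Fbp2 and G6pc were dim, however, and Pcx was higher by 0.49, as Aldoa was. The Abcb11-/- mother's array was 1.5-fold or more above that of the WT mother for 11 of the 34 measured genes and below it for 1, where 4.16% of all genes were higher and 2.88% lower by the same fold. The 34 genes had a median log2 difference of 0.48, and all genes 0.01. Among the 21 genes whose lung values averaged at least 6, 10 were higher and 1 was lower by that fold, beside 4.24% and 2.38% of all genes of that brightness. These counts describe a pair of arrays, with no test.

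**Figure D1:**
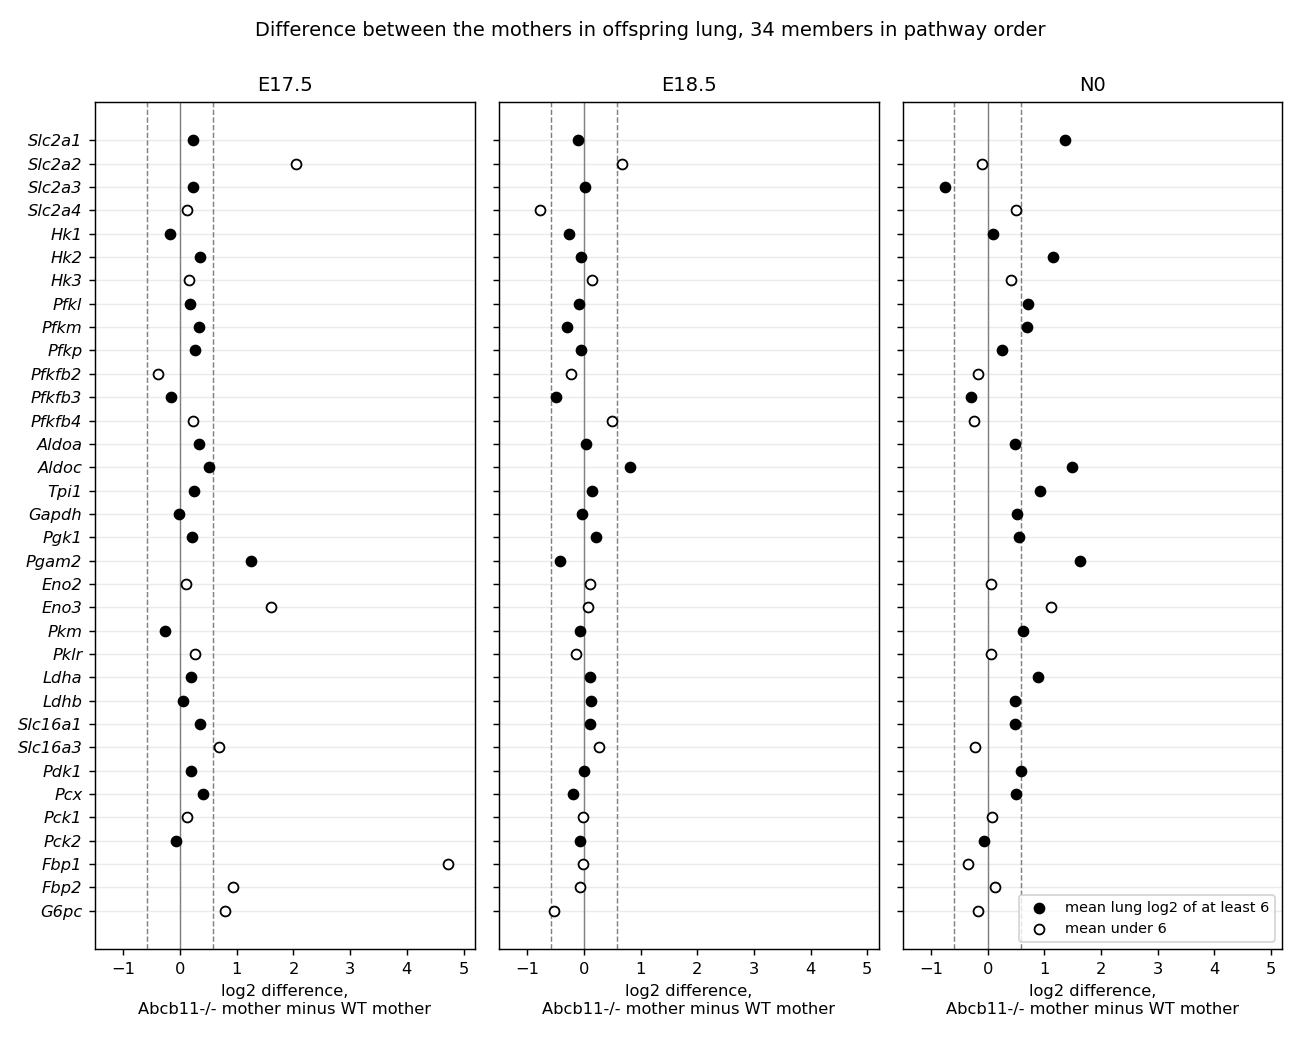
Log2 difference, Abcb11-/- mother minus WT mother, for the 34 measured genes in pathway order at E17.5, E18.5 and N0, from 1 array per mother and stage. Filled points are genes with a mean lung value of at least 6, open points are dimmer genes, and dashed lines mark 1.5-fold. At N0 most filled points lie right of 0 and 10 lie past the right dashed line, while at E17.5 the points far to the right, Fbp1, Slc2a2, Eno3 and Pgam2, sit on the array that carried hepatocyte and muscle genes.

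Slc2a1, the glucose transporter GLUT1, had log2 values of 9.27, 8.995 and 9.04 at E17.5, E18.5 and N0 with the Abcb11-/- mother, against 9.03, 9.09 and 7.68 with the WT mother. The N0 array of the WT mother was below the other 5, which lay close together, and the difference at N0 was 1.36 (2.57-fold). A second probe set for the gene differed by 1.66 at N0. Slc2a3, the high-affinity transporter GLUT3, was the only gene of the 34 that was 1.5-fold lower at N0, at 6.80 with the Abcb11-/- mother and 7.55 with the WT mother. It had been at 6.43 with the Abcb11-/- mother and 6.21 with the WT mother at E17.5, and at 5.99 with the Abcb11-/- mother and 5.98 with the WT mother at E18.5, so it was higher at N0 than at E18.5 with either mother. Its other 3 probe sets were dim and differed by -0.84, -0.09 and -0.04 at N0, and the average over all 4 by -0.43. GLUT3 is abundant in neutrophils, and the summed signal of 9 neutrophil genes at N0 was 2657 with the Abcb11-/- mother and 4351 with the WT mother. Among them S100a8 was at 10.21 with the Abcb11-/- mother and 10.90 with the WT mother. The part of these cells in the Slc2a3 value was not tested. The transporters of liver (Slc2a2) and muscle (Slc2a4) were dim, and at N0 they differed by -0.10 and 0.49.

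Hexokinase 2 (Hk2), the inducible enzyme that traps glucose in the cell, was at 8.21, 8.58 and 8.31 over the stages with the Abcb11-/- mother and at 7.85, 8.64 and 7.14 with the WT mother. The N0 difference was 1.16 (2.24-fold). Hexokinase 1, the housekeeping form, kept within a narrow band, 7.80 to 8.16 on the 6 arrays, with a difference of 0.10 at N0. Hk3, the form of myeloid cells, was dim (3.29 to 3.71).

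Phosphofructokinase commits the sugar to glycolysis. Its liver-type subunit Pfkl was at 7.76, 7.93 and 7.13 with the Abcb11-/- mother and at 7.57, 8.03 and 6.42 with the WT mother, so both N0 arrays were below the earlier ones and the WT one was further down (difference 0.70). With the mean of its 3 probe sets the difference was 0.42. The muscle-type subunit Pfkm was at 7.45, 6.70 and 6.70 with the Abcb11-/- mother and 7.11, 6.99 and 6.00 with the WT mother (0.70 at N0). The platelet-type subunit Pfkp differed by 0.25 at N0. The PFKFB enzymes, which make and remove the allosteric activator fructose-2,6-bisphosphate, did not share the direction of these genes, since the N0 differences were -0.16 for Pfkfb2, -0.29 for Pfkfb3 and -0.23 for Pfkfb4, all within 1.5-fold.

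The middle of the pathway held more of these differences. Aldolase C (Aldoc), which splits fructose-1,6-bisphosphate, was at 7.08, 7.49 and 6.99 with the Abcb11-/- mother and at 6.57, 6.67 and 5.50 with the WT mother. Of the 21 brighter genes it alone was 1.5-fold apart at E18.5 (0.82), and it was again at N0 (1.49), although a second, dim probe set differed by -0.17 at E18.5 and 0.25 at N0. The mean of the pair was within 1.5-fold at E18.5 (0.33) and past it at N0 (0.87). Aldolase A was at 10.32 with the Abcb11-/- mother and 9.83 with the WT mother at N0 (0.49). Tpi1, triosephosphate isomerase, was at 10.51, 10.13 and 9.74 with the Abcb11-/- mother and 10.26, 9.99 and 8.81 with the WT mother (0.93 at N0). Its values declined over the stages with either mother, and more with the WT mother.

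Gapdh and Pgk1, which oxidise glyceraldehyde-3-phosphate and make the first ATP of the pathway, lay just under 1.5-fold at N0. Gapdh was at 11.74 with the Abcb11-/- mother and 11.22 with the WT mother (0.52), after values between 11.95 and 12.06 on the 4 earlier arrays. Pgk1 was at 9.68 with the Abcb11-/- mother and 9.12 with the WT mother (0.56). A second Pgk1 probe set differed by 0.66, and the 4 Aldoa probe sets by 0.49 to 0.65, so these genes sit on the threshold and not clearly to one side of it. Just past the threshold were Pdk1 (0.59) and Pkm (0.62). Pdk1 was within 1.5-fold with averaged probe sets (0.56), quantile normalization (0.57) or median centring (0.54), and Pkm with median centring (0.57).

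Pgam2 and Eno3 are the muscle forms of phosphoglycerate mutase and enolase. Pgam2 was at 7.35, 7.05 and 6.84 with the Abcb11-/- mother and at 6.09, 7.47 and 5.21 with the WT mother, the widest N0 difference of the 34 genes (1.63). Eno3 was at 7.62, 5.87 and 5.80 with the Abcb11-/- mother and 6.02, 5.79 and 4.68 with the WT mother (1.11 at N0). Muscle genes moved between the same arrays: the summed signal of 13 heart muscle genes at N0 was 2596 with the Abcb11-/- mother and 1726 with the WT mother, and Tnni3, a heart troponin, was at 6.49 with the Abcb11-/- mother and 5.25 with the WT mother. Of the skeletal muscle genes at N0, 2 of 14 were 1.5-fold higher or more and 4 lower, with differences of 0.94 for Ckm and -0.63 for Acta1. The part of heart muscle in the values of Pgam2 and Eno3 was not tested.

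At the end of the pathway, Pkm, the pyruvate kinase of most tissues, was at 9.01, 9.12 and 9.17 with the Abcb11-/- mother and at 9.28, 9.20 and 8.55 with the WT mother. Lactate dehydrogenase A (Ldha), the subunit that favours lactate formation, was at 10.87, 10.74 and 10.52 with the Abcb11-/- mother and at 10.67, 10.62 and 9.64 with the WT mother, a difference of 0.88 (1.84-fold) at N0 after 0.12 at E18.5. Ldhb was at 8.47 with the Abcb11-/- mother and 7.98 with the WT mother at N0 (0.49). The lactate exporter Slc16a1 (MCT1) was at 8.57 with the Abcb11-/- mother and 8.09 with the WT mother (0.48), and Slc16a3 (MCT4), induced by hypoxia in other cells, was dim, at 3.37 with the Abcb11-/- mother and 3.59 with the WT mother. Pdk1, which switches off pyruvate dehydrogenase, was at 8.37, 7.98 and 7.96 over the stages with the Abcb11-/- mother and 8.18, 7.97 and 7.37 with the WT mother.

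**Figure D2:**
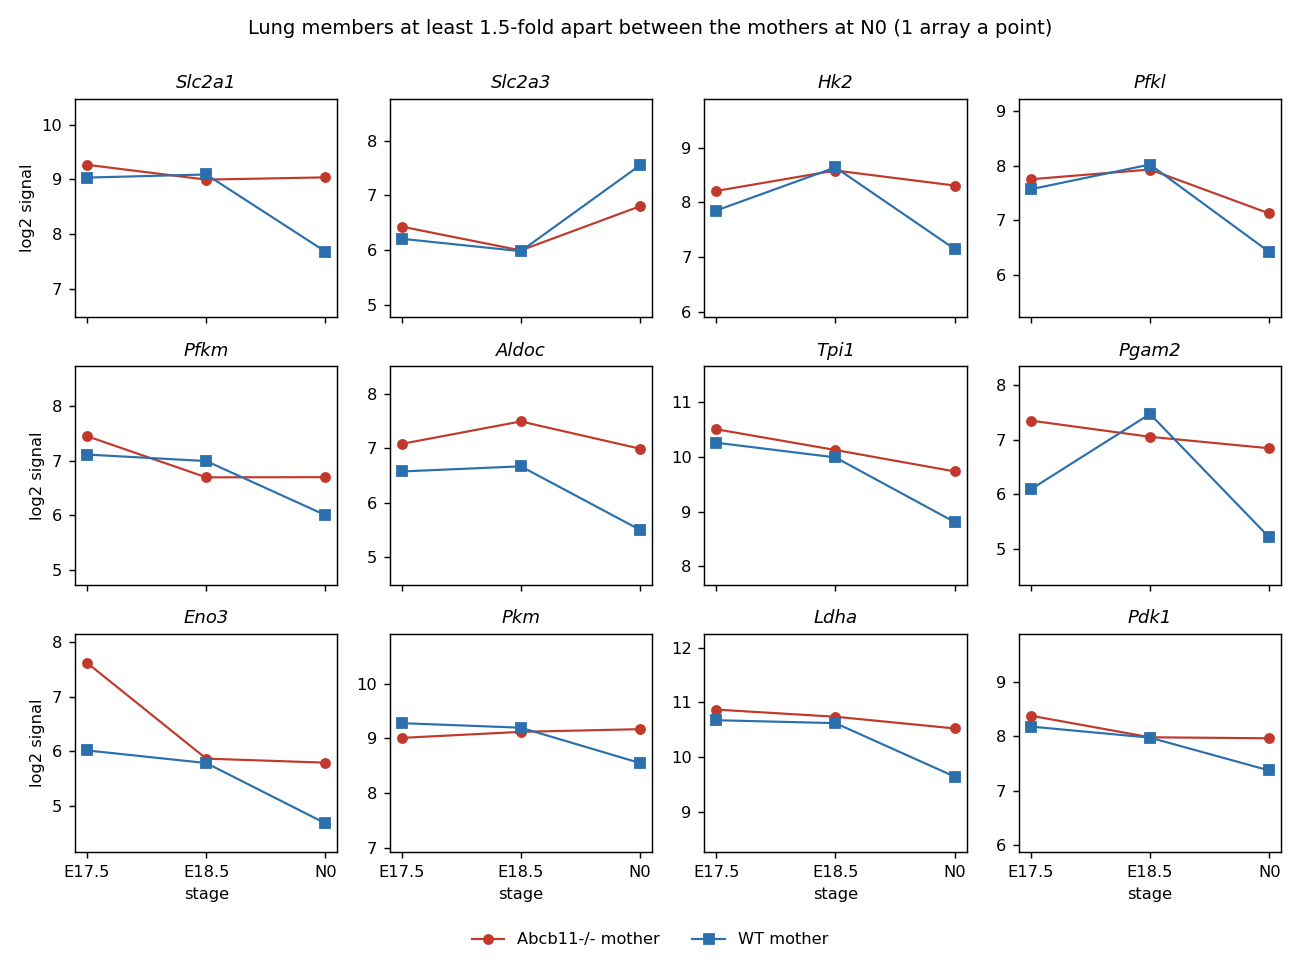
Log2 signal at E17.5, E18.5 and N0 for the 12 genes at least 1.5-fold apart between the mothers at N0, with 1 array per point, circles for the Abcb11-/- mother and squares for the WT mother. Slc2a1 stays near 9 on 5 arrays and is at 7.68 on the N0 array of the WT mother, and Slc2a3 is the gene with the WT mother's array on top at N0.

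Of the enzymes of gluconeogenesis, none was 1.5-fold apart at N0. Pyruvate carboxylase (Pcx), which also refills the citric acid cycle, was at 7.79 with the Abcb11-/- mother and 7.30 with the WT mother. Pck2, the mitochondrial carboxykinase, was at 7.53 with the Abcb11-/- mother and 7.60 with the WT mother, and its 6 lung values spanned only 7.53 to 7.76. Pck1, Fbp1, Fbp2 and G6pc were at 3.46 or lower at N0 with either mother. Among 38 measured genes beside the pathway (pyruvate entry, fructose use, shuttles, further transporters), 5 were higher at N0 by 1.5-fold or more and 1 lower. Among 17 measured HIF targets outside glycolysis, 4 were higher, none was lower and 13 were within 1.5-fold, with a median difference of 0.31. Of all genes, 4.16% were higher and 2.88% lower by that fold. The HIF target Egln3, an oxygen-sensing prolyl hydroxylase, was at 7.69 with the Abcb11-/- mother and 5.03 with the WT mother at N0, and at 8.34 with the Abcb11-/- mother and 8.38 with the WT mother at E18.5.

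The promoters of genes that moved together at N0 are shown for the HIF core letters ACGTG, read on both strands, so that CACGT is ACGTG on the other strand and CACGTG holds a match on each strand. The 250 bases before the start site are printed 5′ to 3′ from RefSeq (GRCm38.p6), with the matches in capitals. Ldha (chr7:46845554-46845803, plus strand) had matches beginning at -145, -144, -48, -47 and -34 from the start site, Slc2a1 (chr4:119108495-119108744, plus strand) at -36, Hk2 (chr6:82774455-82774704, minus strand) at -226 and -52, and Pgk1 (chrX:106186850-106187099, plus strand), the gene just under 1.5-fold, at -150 and -131. A second Ldha window of the table, at chr7:46846832-46847081, held none. These promoters are printed because they hold matches, and of the 11 genes higher at N0, 6 had none in any window (Pfkl, Aldoc, Tpi1, Pgam2, Eno3 and Pdk1).
Ldha: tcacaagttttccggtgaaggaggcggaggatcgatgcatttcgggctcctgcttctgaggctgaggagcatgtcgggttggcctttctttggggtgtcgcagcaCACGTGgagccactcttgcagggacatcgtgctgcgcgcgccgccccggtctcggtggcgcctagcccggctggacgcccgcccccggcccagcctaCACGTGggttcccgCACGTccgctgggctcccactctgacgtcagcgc
Slc2a1: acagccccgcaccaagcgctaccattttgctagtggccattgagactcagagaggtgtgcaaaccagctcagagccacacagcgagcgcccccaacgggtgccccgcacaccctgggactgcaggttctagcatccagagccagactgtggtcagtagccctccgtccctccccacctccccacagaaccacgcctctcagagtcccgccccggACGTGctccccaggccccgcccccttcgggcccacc
Hk2: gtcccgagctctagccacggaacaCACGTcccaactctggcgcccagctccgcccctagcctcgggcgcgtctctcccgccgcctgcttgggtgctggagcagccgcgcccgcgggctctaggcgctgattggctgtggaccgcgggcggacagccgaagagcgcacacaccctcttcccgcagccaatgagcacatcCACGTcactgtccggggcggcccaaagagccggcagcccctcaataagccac
Pgk1: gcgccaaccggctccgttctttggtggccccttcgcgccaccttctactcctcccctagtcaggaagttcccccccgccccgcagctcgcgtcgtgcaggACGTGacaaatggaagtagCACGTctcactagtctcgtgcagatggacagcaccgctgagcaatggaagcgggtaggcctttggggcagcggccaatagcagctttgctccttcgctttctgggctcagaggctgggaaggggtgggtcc
ACGTG occurred in 38.3% of the 47 windows of the 32 measured genes found in the table, and in 16.6% of all 32851 windows of that length. By window, it was not more frequent in the genes that were higher at N0, with 33.3% of 18 windows (11 genes), than in the other measured genes, with 41.4% of 29 windows (21 genes). Some windows of a gene overlap, however. By gene, 5 of 11 and 9 of 21 held it in at least 1 window. The 9 were Pgk1, Aldoa, Pcx and Slc16a1 (higher at N0 by 0.48 to 0.56), the dim Hk3 and Fbp2, and Slc16a3, Pfkfb2 and Pfkfb3, which were lower. The split at 1.5-fold therefore does not set genes that moved against genes that did not. With GCGTG added, which also fits the HIF core, the shares were 72.2% and 65.5%, and 38.6% for all windows. A match of letters is a description of the sequence and not a bound site.

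The lung arrays were also compared between stages, within each mother. With the Abcb11-/- mother, 2 of the 34 genes were higher by 1.5-fold or more at N0 than at E18.5 (Slc2a3 and Slc2a4) and 1 was lower (Pfkl), beside 2.72% and 3.64% of all genes. With the WT mother, 1 gene was higher (Slc2a3, 1.57) and 15 were lower, beside 5.03% and 6.46% of all genes, with a median of -0.37 over the 34 genes and -0.02 over all genes. The 15 ran through the pathway: Slc2a1 (-1.41), Hk2 (-1.49), Pfkl (-1.60), Pfkm (-0.99), Aldoa (-0.60), Aldoc (-1.16), Tpi1 (-1.18), Gapdh (-0.75), Pgk1 (-0.69), Pgam2 (-2.26), Eno3 (-1.10), Pkm (-0.65), Ldha (-0.98), Slc16a1 (-0.67) and Pdk1 (-0.60). The N0 array of the WT mother was the lowest of the 6 lung arrays for 15 of the 21 brighter genes, and for 31.2% of all genes of that brightness. It enters this comparison and the one by mother at N0, so the pair is not independent, and the array has no replicate.

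In the model over all 6 lung arrays with terms for stage and mother, no gene passed an adjusted p under 0.05 in limma for N0 against E18.5, among the 34 or among all 17097 (percent called 0.0). Without adjustment, 1 of the 34 was higher and 9 were lower at p under 0.05, beside 2098 genes in all. With a trended and robust prior, Pfkl was called lower (limma adjusted p = 0.0432), beside 62 genes higher and 25 lower among all 17097. For the mother over the stages, limma also called none of the 34 and none of all genes, with 4 of the 34 higher and 1 lower, and 867 genes in all, at an unadjusted p under 0.05. The model had 2 residual degrees of freedom, and a difference limited to N0 counts in it as spread.

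At E18.5 the mothers differed little. With the Abcb11-/- mother 2 of the 34 genes were higher by 1.5-fold or more (Aldoc by 0.82 and the dim Slc2a2 by 0.68 on the log2 scale) and 1 was lower (Slc2a4, -0.77), beside 2.13% and 1.26% of all genes, with a median of -0.02. With averaged probe sets, Aldoc (0.33) and Slc2a4 (-0.40) were within 1.5-fold, and a second Slc2a4 probe set differed by -0.03. The E17.5 arrays had 7 higher and none lower, beside 3.47% and 3.55% of all genes. They were Fbp1, fructose-1,6-bisphosphatase of liver, at 8.43 with the Abcb11-/- mother and 3.7 with the WT mother, the liver transporter Slc2a2 (difference 2.04), Eno3 (1.60), Pgam2 (1.26), the muscle bisphosphatase Fbp2 (0.93), the glucose-6-phosphatase G6pc (0.79) and Slc16a3 (0.69). Most of the 7 are liver or muscle forms, and they stood on the array on which 11 of 11 hepatocyte and 12 of 14 skeletal muscle genes were higher. Only Pgam2 averaged 6 or more in the lung. The part of liver and muscle RNA in these values was not tested.

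Between E17.5 and E18.5, 7 of the 34 genes were lower and none higher with the Abcb11-/- mother (3.61% and 4.28% of all genes), among them Fbp1 (-4.93), Slc2a2 (-1.93) and Eno3 (-1.75). With the WT mother none was lower and 4 were higher (6.76% and 5.77% of all genes), Pgam2 (1.38), Pcx (0.81), Hk2 (0.79) and Pfkp (0.76). In the model over all arrays, limma called none of the 34 for E18.5 against E17.5 (2 higher and 3 lower at an unadjusted p under 0.05) and 10 of all genes (0.0585%). Leaving out the WT mother's E17.5 array leaves the stage to the array with hepatocyte genes. The log2 fold change was then -2.12 for Slc2a2 and -5.02 for Fbp1.

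In the adult liver, 5 of the 34 genes passed the test between the genotypes, and none of them was an enzyme of gluconeogenesis, although Pck1 lay near the threshold and was called lower in several other settings. Slc2a1 and Slc2a3 were higher in Abcb11-/- mice and Pfkfb3, Pklr and Ldhb were lower (limma, adjusted p under 0.05 over all genes), beside 4.33% of all genes higher and 2.91% lower. Nothing is read from so few calls against that background, and their split moved with the settings. It was 1 higher and 1 lower with averaged probe sets, 1 higher and 7 lower with median centring, and 1 higher and none lower without WT replicate 2 or 3. The values of the 2 genotypes did not overlap for 16 of the 34 genes, 8 in each direction, and for 26.0% of all genes. The median log2 fold change was 0.03 over the 34 genes and 0.003 over all genes. The labels number the mice of a genotype from 1 to 3 and do not say more of their origin, so the p-values measure the spread between these samples.

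Slc2a1, which the adult hepatocyte uses little beside GLUT2, had values of 7.55, 7.38 and 7.41 in Abcb11-/- livers, against 6.65, 6.44 and 6.85 in WT livers. Every Abcb11-/- mouse was above every WT mouse, and the fold change of 0.80 on the log2 scale (SE 0.12, 1.74-fold, limma adjusted p = 0.0095) was larger than the spread within either genotype. It passed the threshold without any one of the 6 mice (limma adjusted p between 0.016 and 0.0436). A second Slc2a1 probe set differed by 0.54. Slc2a3 was dim, at 3.33, 3.66 and 3.63 in Abcb11-/- livers and 3.19, 2.86 and 2.92 in WT livers (0.55, limma adjusted p = 0.0484), and of its 4 probe sets 2 did not run the same way (-0.06 and -0.17). Slc2a2 (GLUT2), the main hepatocyte transporter, averaged 11.82 ± 0.27 in Abcb11-/- livers and 11.84 ± 0.04 in WT livers (SD, n = 3 each).

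Pklr, the liver pyruvate kinase that carbohydrate feeding induces, was at 8.05, 8.08 and 7.33 in Abcb11-/- livers and 8.57, 8.78 and 8.65 in WT livers. It fell by 0.85 on the log2 scale (SE 0.20, limma adjusted p = 0.0462), with Abcb11-/- replicate 3 lowest, and its 3 probe sets ran alike (-0.84, -0.91 and -0.85). Pfkfb3, which raises fructose-2,6-bisphosphate, was at 4.35, 3.92 and 4.03 in Abcb11-/- livers and 4.73, 4.65 and 4.94 in WT livers (-0.67, SE 0.14, limma adjusted p = 0.027), at a low signal. Ldhb, the lactate dehydrogenase subunit of oxidative tissues, was at 5.52, 5.63 and 5.75 in Abcb11-/- livers and 6.12, 6.01 and 6.08 in WT livers (-0.44, SE 0.09, limma adjusted p = 0.0331). Each of these 3 lost its call when any WT mouse was left out. The limma adjusted p was 0.115, 0.165 and 0.136 for Pklr without WT replicates 1, 2 and 3, between 0.0725 and 0.099 for Pfkfb3, and between 0.0945 and 0.114 for Ldhb. For Slc2a3 it was between 0.0573 and 0.174. Of the Abcb11-/- mice, leaving out replicate 2 or 3 also ended the call of Slc2a3 (0.0974 and 0.144) and Pfkfb3 (0.0522 and 0.0921), and leaving out replicate 1 or 2 that of Ldhb (0.0684 and 0.06), while Pklr stayed called. With averaged probe sets Slc2a3 (0.16, limma adjusted p = 0.227), Pfkfb3 (-0.40, 0.0822) and Ldhb (-0.35, 0.0609) missed the threshold. Slc2a3 also missed it with quantile normalization (0.0566) and median centring (0.0796), and Ldhb with a trended and robust prior (0.063).

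**Figure D3:**
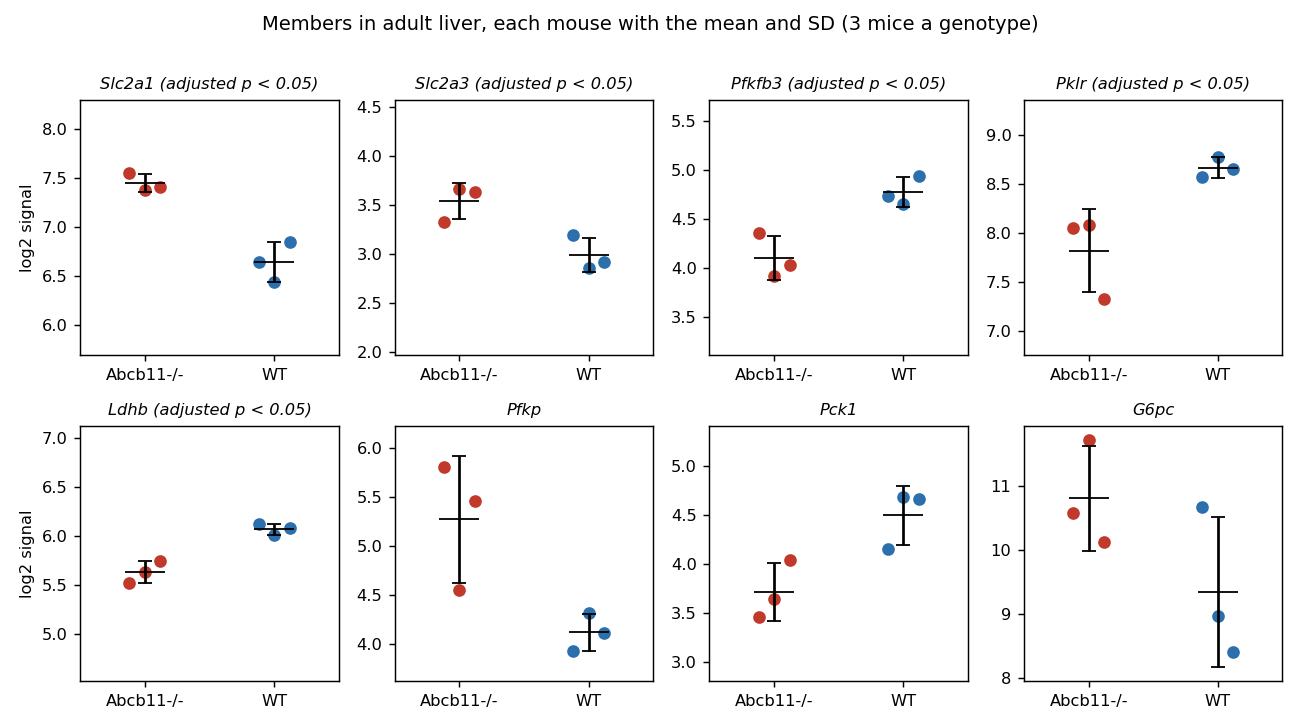
Log2 signal in liver for the 5 called genes and for Pfkp, Pck1 and G6pc, with a point per mouse, Abcb11-/- left of WT, and the mean with its SD (n = 3 mice per genotype). The points of the 2 genotypes are apart in every panel but that of G6pc, where WT replicate 1 at 10.67 lies among the Abcb11-/- mice.

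Several genes of glucose production and use had wide differences that missed the threshold. G6pc, which releases free glucose, was at 10.59, 11.73 and 10.13 in Abcb11-/- livers and 10.67, 8.97 and 8.40 in WT livers. Its fold change of 1.47 on the log2 scale had an SE of 0.61 (limma adjusted p = 0.217), and the groups overlapped through WT replicate 1. Pck2 was at 6.32, 5.25 and 5.46 in Abcb11-/- livers and 4.97, 5.25 and 5.04 in WT livers (0.59, SE 0.26, limma adjusted p = 0.24), highest in Abcb11-/- replicate 1. Pfkp was at 5.80, 4.55 and 5.46 in Abcb11-/- livers and 3.93, 4.31 and 4.11 in WT livers (1.15, SE 0.29, limma adjusted p = 0.0593), and without Abcb11-/- replicate 2 the adjusted p was 0.00308. Pck1, the cytosolic phosphoenolpyruvate carboxykinase, was at 3.46, 3.64 and 4.04 in Abcb11-/- livers and 4.15, 4.68 and 4.66 in WT livers (-0.78, SE 0.19, limma adjusted p = 0.0539). Pck1 transcripts are abundant in liver, and this probe set, the only one with the gene's name alone, was dim. It was called lower with quantile normalization (limma adjusted p = 0.032), median centring (0.0222), a trended and robust prior (0.0403), without WT replicate 1 (0.0462) and without Abcb11-/- replicate 3 (0.0446). Pfkm (-0.56, adjusted p = 0.0709), Fbp2 (-0.38, 0.0656) and Pdk1 (-0.42, 0.12) did not pass the threshold in limma either, though the values of their groups did not overlap. With median centring Fbp2 (-0.54, limma adjusted p = 0.0193), Pfkm (-0.72, 0.0265) and Pdk1 (-0.58, 0.0386) were called lower, Pfkm also with a minimum mean value of 6 (0.0446), and Pfkp was called higher with a trended and robust prior (0.0492). Median centring moved the median of all liver genes by -0.16, and over all genes it called 548 higher and 1659 lower.

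The abundant enzymes lay close together. Fbp1 averaged 12.74 ± 0.09 in Abcb11-/- livers and 12.91 ± 0.09 in WT livers, and Pcx averaged 10.91 ± 0.13 in Abcb11-/- livers and 10.88 ± 0.04 in WT livers (SD, n = 3 each). Gapdh averaged 12.52 ± 0.13 in Abcb11-/- livers and 12.50 ± 0.07 in WT livers, and Ldha averaged 11.90 ± 0.05 in Abcb11-/- livers and 11.95 ± 0.08 in WT livers. Tpi1 (0.26, SE 0.09), Aldoa (0.22, SE 0.11) and Pgk1 (0.20, SE 0.08) had every Abcb11-/- mouse above every WT mouse by a small margin, with limma adjusted p values of 0.118, 0.294 and 0.19. The lactate transporter Slc16a1 differed by 0.22 (SE 0.17).

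**Figure D4:**
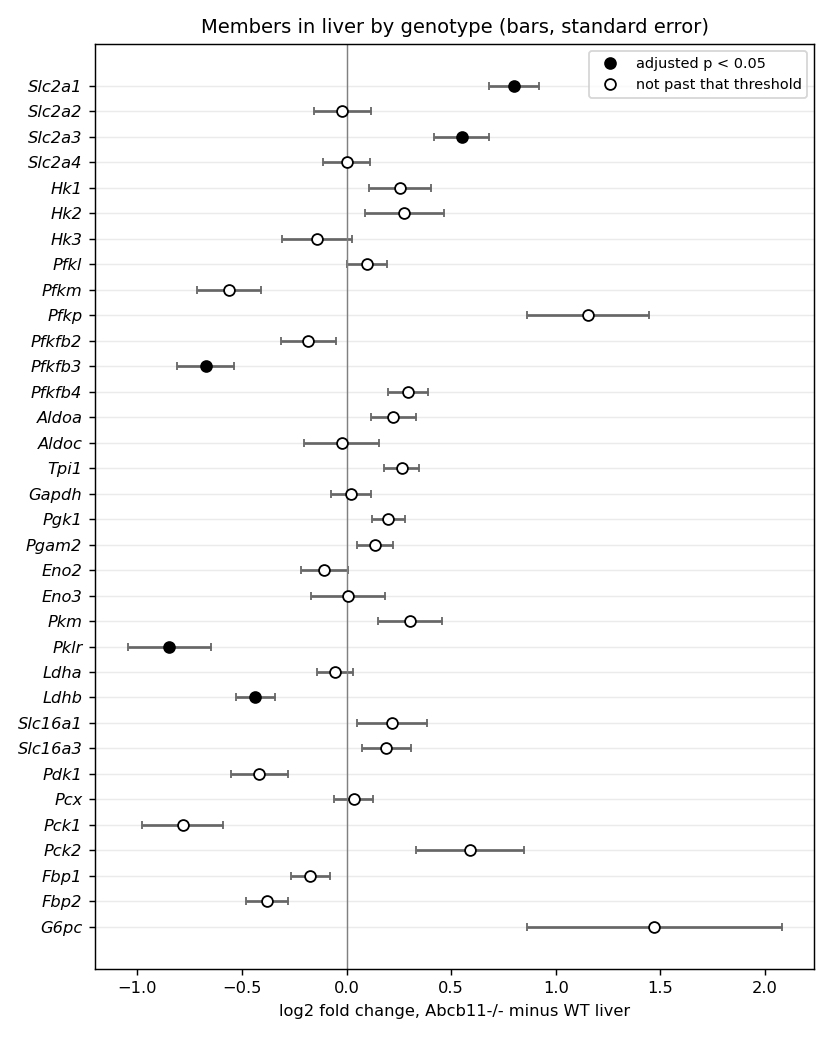
Log2 fold change, Abcb11-/- minus WT liver, for the 34 genes in pathway order, with bars for the standard error of the limma fit (3 mice per genotype). Filled points passed an adjusted p under 0.05: Slc2a1 and Slc2a3 right of 0, Pfkfb3, Pklr and Ldhb left of it; G6pc has the widest bar.

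Genes next to the pathway were read by the same fit. Of 38 measured genes beside it, 2 were higher and 2 lower in Abcb11-/- livers, beside 4.33% and 2.91% of all genes. The same shares stand beside the counts of regulators and HIF targets below, and nothing is read from so few calls. Pdk4, the pyruvate dehydrogenase kinase induced by fasting, was at 6.89, 7.03 and 8.33 in Abcb11-/- livers and 5.44, 3.90 and 3.92 in WT livers (3.00, SE 0.51, limma adjusted p = 0.0143). Mitochondrial malate dehydrogenase (Mdh2) was higher by 0.54 (limma adjusted p = 0.0353). Gpd2, the mitochondrial glycerol-3-phosphate dehydrogenase that feeds glycerol into glucose synthesis, fell by 1.31 on the log2 scale (limma adjusted p = 0.00501), with 7.26, 7.19 and 6.82 in Abcb11-/- livers and 8.64, 8.42 and 8.13 in WT livers. The hexose transporter Slc2a8 fell by 0.58 (limma adjusted p = 0.035). Among 20 measured regulators of gluconeogenesis, 2 were higher, the CREB coactivator Crtc3 (0.78, limma adjusted p = 0.0493) and the kinase Sik1 (1.12, 0.00993), and 1 was lower, Mlxipl, the carbohydrate-responsive factor that drives Pklr (-0.42, 0.0225). Of 17 HIF targets outside glycolysis, 1 was higher and 1 lower, and Egln3 was at 7.34, 7.03 and 6.91 in Abcb11-/- livers and 7.18, 6.98 and 6.92 in WT livers.

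Markers of other cell types moved in the same livers. Of 9 neutrophil genes, 4 were called higher, beside 4.33% of all genes. The summed signal of the 9 was 199 to 564 in Abcb11-/- livers and 90.0 to 124 in WT livers. Of 7 bile duct genes, 2 were called higher (Epcam by 0.67, limma adjusted p = 0.0123), with a sum of 84.0 to 102 in Abcb11-/- livers and 66.0 to 73.0 in WT livers. None of 12 macrophage genes was called, and their sum was 3392 to 8474 in Abcb11-/- livers and 3760 to 5547 in WT livers. None of the 11 hepatocyte genes was called. None of 7 cell cycle genes was called either, but Abcb11-/- replicate 1 stood apart, with a summed signal of 711, against 127 and 129 in the other Abcb11-/- livers and 78.0 to 155 in WT livers. Pfkp was highest in that mouse. Without that mouse 7 of the 34 genes were called, 4 higher and 3 lower. Of all genes 843 were then higher and 480 lower, against 740 and 498 with all mice. Ldhb was no longer called, and in addition Hk2 (0.50, limma adjusted p = 0.0446) and Pkm (0.49, 0.0237) were higher and Pfkm lower (-0.66, 0.048). The part of these cell types in the values of Slc2a1, Slc2a3, Pfkp and the other genes was not tested.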

How the data were processed

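The authors hybridised biotin-labelled targets prepared from total RNA to Affymetrix HT MG-430 PM plate arrays and deposited log2 values summarised by robust multiarray averaging (RMA). The submitters' processing notes name Partek 6.5. The values were used as deposited. Of 45037 probe sets, 28898 carried 1 gene symbol, 551 several and 15588 none, and the last 2 kinds were left without a name. Array medians were 3.63 to 3.68 in lung and 3.15 to 3.18 in liver, and the number of arrays limits the precision.

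Genotypes were compared in liver by lmFit and eBayes of limma 3.58.1 (R 4.3.3), with Benjamini-Hochberg adjustment over all 17097 genes. Lungs were compared as differences between arrays, counted at 1.5-fold, and by an additive limma model of stage and mother. The script was tested on simulated data. The genes, marker lists and alternatives were chosen with earlier results of these data known. Named with all values of the tissue are genes called in liver and those 1.5-fold apart in the N0 lung. The main isozyme of each step and a few genes of the lists are described too. Promoter windows came from RefSeq (GRCm38.p6). Alternatives were averaged probe sets, a minimum mean value of 6, quantile normalization, median centring, a trended and robust prior, a replicate block, the methods' t-test, a 2-fold threshold and leaving out each array.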

Additional observations from a re-analysis of the deposited data

How the results depend on the processing

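In liver, 5 of the 34 genes were called, and other settings gave 2 with averaged probe sets, 3 with a minimum mean value of 6, 8 with median centring, 12 with the methods' t-test at its threshold without adjustment, 0 after Benjamini-Hochberg adjustment of it, and 1 to 7 without a mouse, the lowest without WT replicate 2 or 3 and the highest without Abcb11-/- replicate 1. Over all genes 1238 were called, against 2207 with median centring, 3129 and 49 with the methods' t-test before and after adjustment, and 492 to 1509 without a mouse. Median centring moved the median of all liver genes by -0.16. Of all liver calls 59.8% were higher, against 24.8% with median centring and 48.8% with quantile normalization. With the replicate number as a block, 2 of the 34 were called, Slc2a1 (limma adjusted p = 0.0331) and Pck1 (0.0364), and 671 of all genes. Mice of the same number correlated at -0.17, -0.15 and -0.24 in their deviations, so the numbers were not taken as a pairing. Slc2a1 stayed called in liver in every setting but the adjusted t-test (0.096). In lung at N0, 5 of the 34 genes remained past 2-fold. The share of all genes past 2-fold was not counted at any stage, so nothing is read from the 2-fold counts. The count was 4 past 2-fold and 1 above a mean of 6 at E17.5, and at E18.5 it was 0 past 2-fold and 1 with averaged probe sets or a mean of 6. The model for N0 against E18.5 called 1 of the 34 genes with a trended and robust prior, beside 62 higher and 25 lower of all genes. Of the 34 genes, 3 and 16 were 1.5-fold apart with the Abcb11-/- and the WT mother alone. For E18.5 against E17.5 these numbers were 7 and 4. Leaving out a lung array leaves its stage with 1 array, so no calls are given for those fits. Of 141 values of single genes under other settings, 100 kept their side of the threshold, 41 did not and 0 reversed. The cause of these changes was not tested. No lung difference at a stage has a replicate.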
